A study of Homo sapiens with 12 samples.

Results

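The nuclear-encoded subunits of the mitochondrial respiratory chain and ATP synthase were described across 12 RNA-seq libraries of HEK293T, a human cell line derived from embryonic kidney. Members were the gene rows whose symbols match the naming patterns of subunits (NDUF, SDH, UQCR, CYC1, COX and ATP5) and whose raw counts sum to at least 120 over the libraries. Of 41878 gene rows, 136 matched the names, 54 of these had too few counts, and 82 were kept. They comprise 37 members of complex I, 4 of complex II, 9 of complex III, 11 of complex IV and 21 of complex V. The patterns for ATP5 also admit processed copies, so 4 members of complex V are pseudogenes (ATP5F1AP3, ATP5PDP2, ATP5MC2P4 and ATP5MFP2) and 78 members are subunit genes. Members were thus selected on 1 measured value, the count total: just inside the minimum lay ATP5F1AP3 with 138 counts and ATP5PDP2 with 183, and just outside it ATP5PDP4 with 93 and ATP5F1AP2 with 89. That total uses all libraries alike and no contrast between groups. Some subunits have names that the patterns do not take in, among them COX4I1 and COX7A2L.

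All libraries came from cells transfected with 1 µg of plasmid, either a control vector or one for TRPML3, the endolysosomal cation channel encoded by MCOLN3. Cells were then kept in 10% serum (fed) or without serum (0%) for 4 h (starved) before polyadenylated RNA was taken. The 4 groups, vector fed, vector starved, TRPML3 fed and TRPML3 starved, held 3 biological replicates each, numbered 1 to 3 in the sample titles. The plasmids were delivered with the reagent Effectene, and no selection of transfected cells is described, so that the share of cells carrying a plasmid in each library is not known.

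The respiratory chain passes electrons from NADH through complex I, or from succinate through complex II, to ubiquinone, then through complex III and cytochrome c to complex IV, which reduces oxygen. Complexes I, III and IV pump protons across the inner mitochondrial membrane, and complex V, the ATP synthase, uses the gradient to make ATP. Complex II is built from nuclear genes alone, while the other complexes also contain subunits encoded in mitochondrial DNA, so their assembly draws on both genomes. Nuclear respiratory factor 1, GABP and YY1 are transcription factors known to bind promoters of many of these genes, and starvation-induced autophagy can remove mitochondria.

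Library totals ran from 33101540 to 43700547 counts, and levels are given as CPM, counts scaled to a common TMM-adjusted library total, with a floor of 3 counts (0.0906 CPM or less). MCOLN3 averaged 16.0 CPM in fed and 11.1 CPM in starved vector cells, and 17037 CPM in fed and 38827 CPM in starved TRPML3 cells, which checks the plasmid labels. By library it had 6211, 4929 and 39972 CPM in fed and 41362, 58223 and 16896 CPM in starved TRPML3 cells (replicates 1, 2 and 3). These ranges overlapped, so the level of MCOLN3 was uneven within both TRPML3 groups. All 7 marker genes fixed for HEK293T (VIM, KRT8, KRT18, PAX2, NEFL, NEFM and LIN28B) averaged at least 1 CPM. Of 6 genes that mark other cell types, COL1A1 alone did, with 0.225 to 20.6 CPM, while PTPRC, CDH5 and UMOD were at or near 0. The remaining markers were low but present, ALB with 0.234 to 2.05 CPM and DCN with 0.172 to 0.577.

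Promoter sequences are shown for SDHB, ATP5PO and NDUFAB1, because these were the 3 members whose starved libraries lay above the fed libraries with no overlap under both plasmids. Each stretch holds the 250 bases before and the 50 bases from the annotated start, 5′ to 3′ on the strand of the gene, from RefSeq on GRCh38.p14. Capitals mark letters that match a motif searched on both strands. These were the motif of nuclear respiratory factor 1 with 1 free base, which includes its full palindrome, the letters CCGGAAG of the ETS family that includes GABP, and the motif of YY1.
SDHB: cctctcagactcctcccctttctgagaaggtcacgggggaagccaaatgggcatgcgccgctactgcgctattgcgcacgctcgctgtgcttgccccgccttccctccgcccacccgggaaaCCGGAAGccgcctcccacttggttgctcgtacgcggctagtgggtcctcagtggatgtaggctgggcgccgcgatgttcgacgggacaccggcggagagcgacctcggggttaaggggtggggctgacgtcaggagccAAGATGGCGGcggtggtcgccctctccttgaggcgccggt
ATP5PO: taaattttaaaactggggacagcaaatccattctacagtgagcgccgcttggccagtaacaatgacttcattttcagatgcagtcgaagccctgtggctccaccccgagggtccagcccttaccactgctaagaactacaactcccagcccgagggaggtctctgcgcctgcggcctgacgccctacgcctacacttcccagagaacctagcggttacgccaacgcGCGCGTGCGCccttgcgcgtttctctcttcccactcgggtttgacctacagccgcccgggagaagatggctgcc
NDUFAB1: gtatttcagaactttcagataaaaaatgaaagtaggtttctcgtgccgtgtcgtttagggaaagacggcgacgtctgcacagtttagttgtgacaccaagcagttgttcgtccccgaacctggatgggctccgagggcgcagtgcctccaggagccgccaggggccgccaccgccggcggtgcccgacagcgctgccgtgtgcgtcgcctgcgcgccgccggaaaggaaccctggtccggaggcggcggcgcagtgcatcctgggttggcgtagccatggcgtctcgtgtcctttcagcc
The SDHB promoter (chr1:17053983-17054282, minus strand) holds the ETS letters before the start and the YY1 letters after it. ATP5PO (chr21:33915755-33916054, minus strand) holds the letters for nuclear respiratory factor 1, and NDUFAB1 (chr16:23596267-23596566, minus strand) holds no match in this window. Among the members, 64 were found in the promoter table by symbol and 18 were not.

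Over those 64 genes and their 76 listed promoters, the motif of nuclear respiratory factor 1 with its free base occurred in 21.1% of promoters, against 5.78% of all 35116 promoters of the same length. Its palindrome occurred in 5.26% against 1.24%, in ATP5F1C, NDUFA8, NDUFB4 and SDHD. The ETS letters were present in 27.6% of member promoters against 10.3% of all, and the YY1 letters in 11.8% against 1.20%. At least 1 of these motifs was found in 37 of the 64 genes. ATP5PF and SDHB held both the ETS and the YY1 letters, and how many of all promoters do so was not read. A match is only a description of the letters in this window.

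Levels differed widely between subunits, here compared as mean CPM per kilobase of annotated transcript (GENCODE release 29). The median subunit gene stood at 47.0 CPM per kb in complex I, 42.3 in complex II, 54.0 in complex III, 94.6 in complex IV and 106 in complex V. In complex I the level ran from 5.53 ± 3.44 (SD over 12 libraries) for NDUFA3, a small accessory subunit of the membrane arm, to 289 ± 36.7 for NDUFS5. In complex III, UQCRFS1, the Rieske iron-sulfur protein, stood at 18.2 ± 6.07 and UQCRH, the hinge protein, at 488 ± 75.3. ATP5F1B, the catalytic beta subunit of ATP synthase, reached 442 ± 119, and ATP5MG, a membrane subunit, 13.4 ± 4.39. The low value of SDHC (6.76 CPM per kb, from 91.7 CPM), a membrane anchor of complex II, rests on an annotated transcript of 13566 bases, against 117 for the iron-sulfur subunit SDHB. Ends of this order depend on the length used: with all exons of a gene as length, UQCR11 in place of UQCRFS1 was lowest in complex III by a small margin, and COX7C in place of COX6A1 was highest in complex IV. That length was found for 77 of the 82 members and not for NDUFA3, so the lower end of complex I could not be compared. By counts alone, 69 of the 82 members had at least 10 CPM in every library.

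Where a subunit has tissue forms, the form known from most tissues supplied nearly all counts. COX6A1 had 57207 counts over the libraries and COX6A2, the heart and muscle form, had 0, which allows up to 3 counts, or 0.00667 CPM over the libraries together. COX6B1 made up 99.0% of its pair with the testis form COX6B2, and COX8A made up 99.6% of its pair with COX8C. COX7A2 (99.96%) and COX7B (99.92%) stood likewise against the muscle form COX7A1 and against COX7B2. The c-ring of ATP synthase is encoded by a trio of genes with the same mature protein. ATP5MC3 gave 66.8% of their counts (60.8 to 73.3% by library), ATP5MC2 22.9% and ATP5MC1 10.3%. That order held in each of the 12 libraries. Of the subunits outside the naming patterns, COX4I1 had 222 to 284 CPM, COX7A2L 132 to 188 and ATP5IF1, the inhibitor of ATP synthase, 96.1 to 147, while COX4I2, the lung and hypoxia form, had no counts and NDUFA4L2 0.516 to 2.86.

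**Figure D1:**
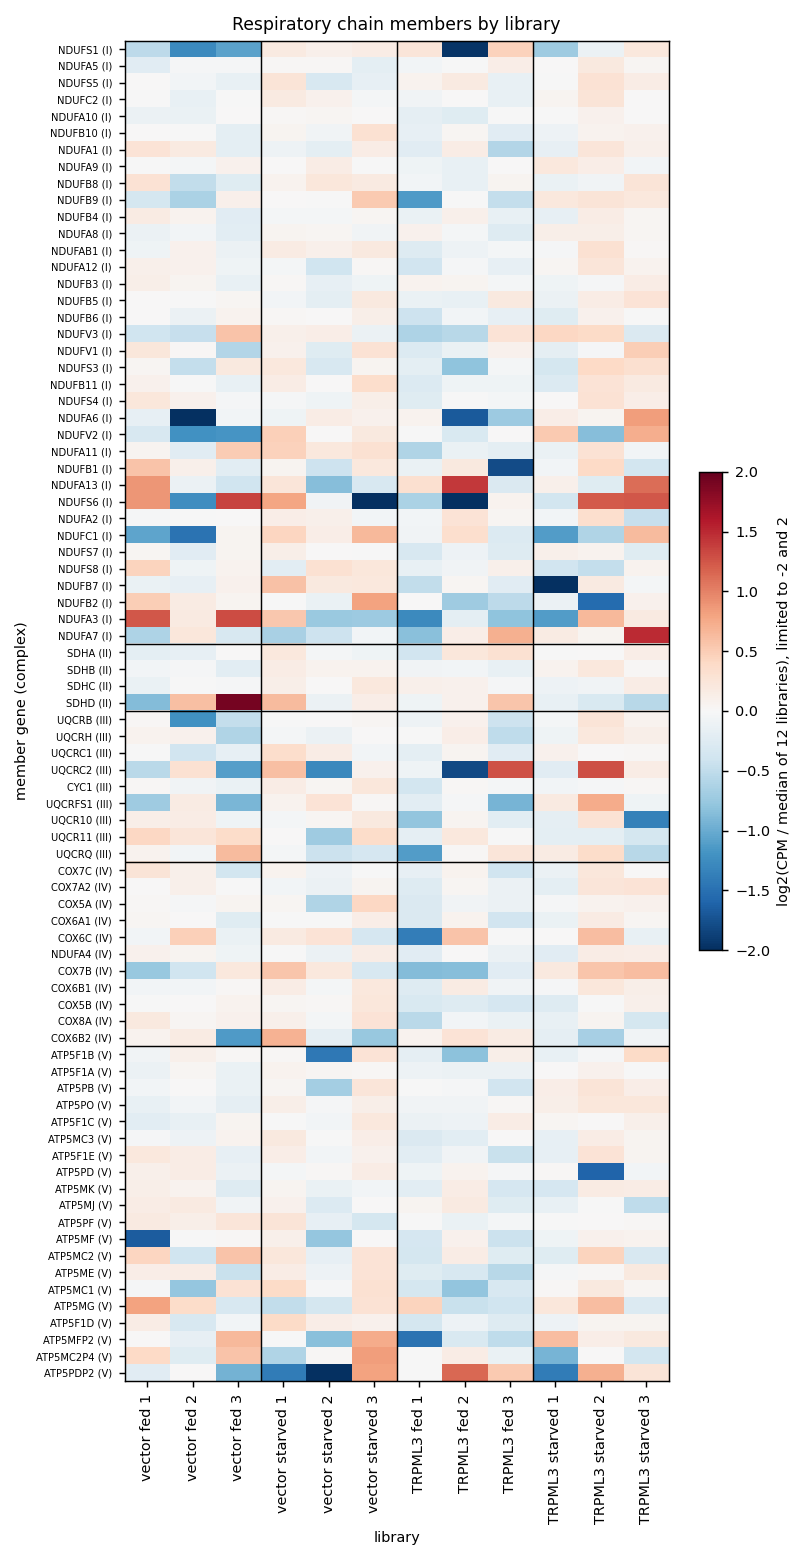
Each row is a member, 80 of the 81 that passed the expression filter, sorted by complex and then by mean level, and each column is a library. Colour gives log2 of the CPM over the member's median of 12 libraries, limited to the range from -2 to 2: most rows are pale, and dark cells are scattered over libraries of all 4 groups.

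Most members were steady from library to library. The SD of log2 CPM over the 12 libraries had a median of 0.23 among the 78 subunit genes, against 0.56 among the 18030 genes tested. Within the middle range of member levels the medians were 0.20 for 38 members and 0.39 for 3569 genes. For 33 members the SD was under 0.2 and for 17 over 0.5. ATP5F1A, the alpha subunit of the ATP synthase head, ran from 498.6 to 582.2 CPM with an SD of 0.08. NDUFA10 (121 to 153 CPM) and NDUFA9 (96.7 to 124 CPM), subunits of complex I, had an SD of 0.10 each. At the other end stood NDUFS6, an accessory subunit of the N module, with an SD of 1.68, followed by UQCRC2 (0.96), a core protein of complex III. Of the pseudogenes, ATP5PDP2 reached 0.95 at under 1 CPM.

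NDUFS6 had 37.5, 8.54 and 52.0 CPM in fed vector cells, 35.0, 19.3 and 1.19 in starved vector cells, 13.03, 3.15 and 21.3 in fed TRPML3 cells and 15.7, 47.5 and 47.8 in starved TRPML3 cells (replicates 1, 2 and 3). High and low libraries occurred in every group, and the groups overlapped. UQCRC2 stood at 66.2, 118 and 45.0 CPM in fed vector cells, 147, 39.4 and 102 in starved vector cells, 90.7, 27.5 and 234 in fed TRPML3 cells and 82.4, 235 and 107 in starved TRPML3 cells, again with overlap. Of 936 values (78 subunit genes in 12 libraries), 41 (4.38%) lay more than 2-fold from the gene's own median, 30 low and 11 high. Over all genes tested the share was 14.6%. Over genes within the middle range of member levels it was 5.92%, whereas the 4.38% covers subunit genes of all levels.

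These departures fell on 22 genes, while 56 had none, and in 14 genes exactly 1 library departed. ATP5F1B had 815, 918 and 871 CPM in fed vector cells, 868, 319 and 1041 in starved vector cells, 759, 487 and 932 in fed TRPML3 cells and 773, 847 and 1112 in starved TRPML3 cells. Only vector starved replicate 2 fell beyond 2-fold, and the partner subunit ATP5F1A read 564 CPM in that library. ATP5PD, a stalk subunit, had 33.6 CPM in TRPML3 starved replicate 2 and 94.3 to 114 CPM elsewhere, and ATP5MF had 24.5 CPM in vector fed replicate 1 against a median of 77.9. SDHD, a membrane anchor of complex II, had 102 CPM in vector fed replicate 3 against a median of 26.8, while SDHA and SDHB of the same complex read 145 and 116 CPM there. Genes within 1000 bases of the departing members were read in the departing libraries, 18 pairs of genes in 27 combinations with a library. Such neighbours were found for 13 of the 22 departing genes. In 5 combinations the neighbour went beyond its range in the other libraries in the same direction as the member: ADCK2 and BRAF beside NDUFB2, NAA15 beside NDUFC1, PTCD1 beside ATP5MF and MRPL36 beside NDUFS6. In 2 it did so in the opposite direction: ZMAT5 beside UQCR10 in TRPML3 starved replicate 3, and VPS13B beside COX6C in TRPML3 fed replicate 1. How often neighbours of other genes do so was not read, so these counts have no background and are description only. How reads shared by overlapping genes were assigned is not given in the sources used here.

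**Figure D2:**
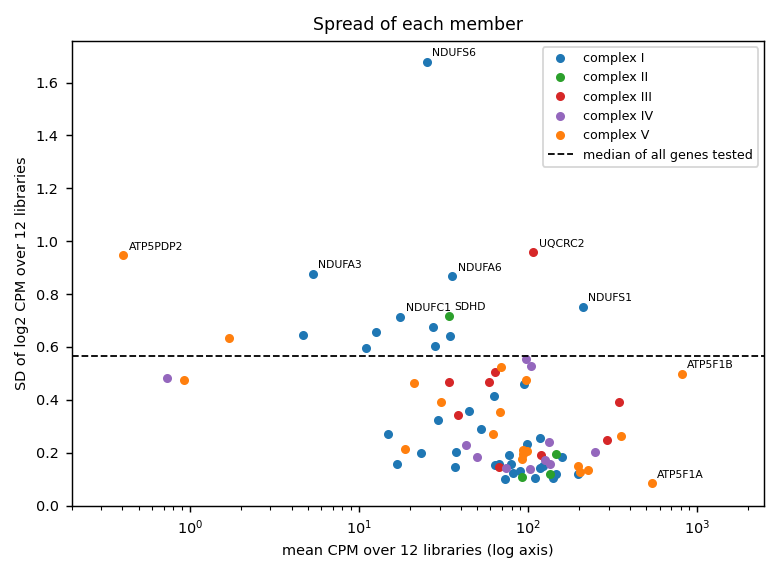
Each point is a member that passed the filter, with its mean CPM on a log axis and the SD of its log2 CPM over 12 libraries, coloured by complex. The dashed line is the median SD of all 18030 genes tested (0.56), and most members lie below it. NDUFS6 lies highest, at 1.68.

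The summed level of all members moved little between libraries. It was 8246, 8015 and 7881 CPM in fed vector cells, 8990, 7528 and 9032 in starved vector cells, 7525, 7725 and 7996 in fed TRPML3 cells and 8111, 9415 and 9138 in starved TRPML3 cells (replicates 1, 2 and 3). The highest library was 1.25-fold the lowest. The fed and starved ranges overlapped under the vector, and under TRPML3 the highest fed library (7996) lay just below the lowest starved one (8111). As a share of raw counts, the members took 0.741 to 0.918% of a library, and on that scale the TRPML3 ranges overlapped (0.741 to 0.792% fed and 0.774 to 0.893% starved). In bulk RNA, fewer cells and less RNA per cell cannot be told apart.

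The 13 subunits encoded by mitochondrial DNA, partners of the members in complexes I, III, IV and V, ranged more widely. Their summed level was 19439, 4882 and 38586 CPM in fed vector cells (replicates 1, 2 and 3), 22277, 7900 and 32007 in starved vector cells, 18110, 11923 and 35929 in fed TRPML3 cells and 21647, 7583 and 39366 in starved TRPML3 cells. In each group replicate 2 was lowest and replicate 3 highest, and over all libraries the range was 8.06-fold. In a fit of group plus replicate number, all 13 had an unadjusted p under 0.05 for the replicate number and a smallest adjusted p of 0.0772 (edgeR quasi-likelihood, Benjamini-Hochberg over 18030 genes). Among the 81 members tested, 2 had an unadjusted p under 0.05, UQCRFS1 (0.00822) and NDUFA7 (0.0473), beside 8.45% of all genes tested. None passed at an adjusted p of 0.05, as for all genes (0.0%). Replicate 3 against replicate 2 gave a median log2 difference of 2.27 for the 13 mitochondrial genes and of 0.02 for the members. The difference between the gene sets was not tested. DESeq2's likelihood ratio test called 1 member for the replicate number, UQCRFS1 (adjusted p = 0.0323), and 4.08% of all genes. It had 34.5 and 34.3 CPM in replicate 3 of the vector and the TRPML3 fed groups, 73.3 and 64.0 in replicate 2 of these groups, 66.3 and 61.5 in the starved replicates 3 and 78.7 and 109 in the starved replicates 2. It was thus lower in replicate 3 than in replicate 2 of every group.

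**Figure D3:**
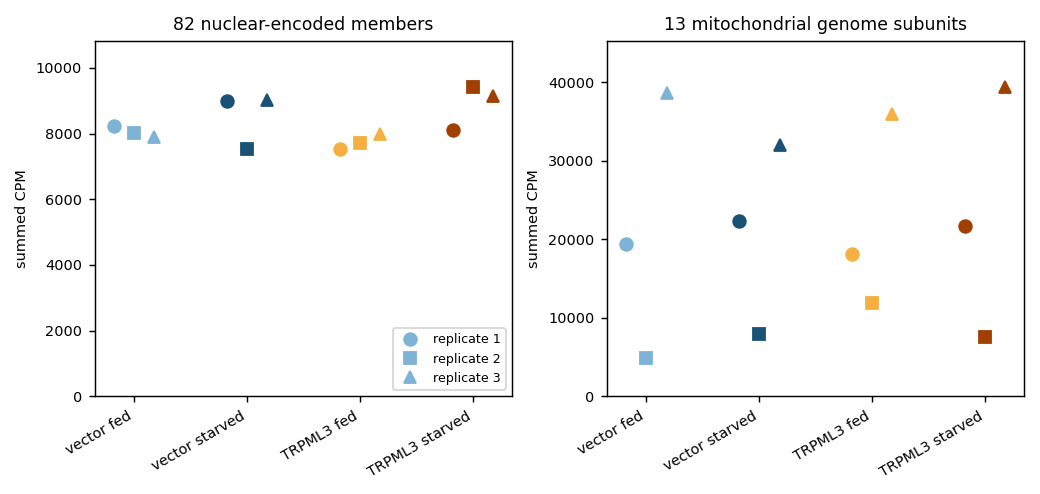
Summed CPM per library for the 82 nuclear-encoded members (left) and for the 13 subunits of the mitochondrial genome (right), by group, with the replicate number as the symbol. On the left the points lie between 7525 and 9415 CPM. On the right replicate 2 is lowest and replicate 3 highest in every group, from 4882 to 39366 CPM.

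To see which members respond to serum withdrawal, starved libraries were compared with fed ones under each plasmid and on average over both. No member was called in these comparisons. The smallest adjusted p among members was 0.363 on average, 1.00 under the vector and 0.812 under TRPML3 (edgeR quasi-likelihood test, 81 members among 18030 genes). Over all genes, 0.0% were called on average, 0.00555% under the vector and 0.0% under TRPML3. On average 6 members (7.41% of 81) had an unadjusted p under 0.05, beside 9.45% of all genes. All 6 were higher in starved cells, and 4.66% of all genes had that p and direction. Without replicate 1 in all 4 groups 2 members had such a p, beside 4.47% of all genes: SDHD (-1.08) and UQCRB (0.56), neither of them among the 6. Under the vector 1 member had such a p, NDUFV2, beside 4.44% of all genes, and under TRPML3 3 did (COX7B, NDUFB9 and ATP5MFP2), beside 5.71%. DESeq2's Wald test also called 0 members in each of these comparisons, and called 1.52%, 0.239% and 0.549% of all genes on average, under the vector and under TRPML3. In the same order it gave 11, 6 and 5 members at an unadjusted p under 0.05, beside 12.1%, 6.21% and 7.87% of all genes. The median member differed by 0.13 on the log2 scale (all genes 0.01), and 65 of 81 members had a positive value, against 50.7% of all genes. Scaled by library size alone, it was 0.06 with 51 of 81 positive, beside a median of -0.06 for all genes. Members share libraries and are not independent, so this count has no test.

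COX7B, a small subunit of complex IV, had the smallest p of the members. It stood at 57.2, 74.0 and 112 CPM in fed vector cells, 143, 113 and 77.9 in starved vector cells, 53.2, 54.1 and 83.4 in fed TRPML3 cells and 111, 143 and 150 in starved TRPML3 cells (replicates 1, 2 and 3). All starved libraries lay above all fed ones under TRPML3, and the groups overlapped under the vector. The average log2 difference was 0.77 ± 0.22 SE (edgeR quasi-likelihood unadjusted p = 0.00498, adjusted p = 0.363). Without replicate 3 in all 4 groups it was 1.11 ± 0.16 with an adjusted p of 0.0292, which passed. Without replicate 1 it was 0.56 and without replicate 2 it was 0.65, each with an adjusted p of 1.00. In the fit of 8 libraries without replicate 3, 4.49% of all genes were called (2.54% higher), against 0.0% with all libraries, and 2 of 81 members, both higher. The other was NDUFV3, an N-module subunit of complex I, at 0.78 ± 0.10 (adjusted p = 0.0267). With all libraries NDUFV3 had 0.25 ± 0.24, since in replicate 3 the order was reversed: 93.7 CPM in fed vector cells against 58.1 in starved vector cells, and 76.2 in fed TRPML3 cells against 51.3 in starved TRPML3 cells. In replicates 1 and 2 its fed libraries had at most 47.7 CPM and its starved libraries 67.5 to 83.8.

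NDUFV2, which carries an iron-sulfur cluster at the NADH end of complex I, had 28.3, 15.2 and 15.6 CPM in fed vector cells and 49.4, 35.4 and 40.5 in starved vector cells. These groups did not overlap (log2 difference 1.08 ± 0.39). Under TRPML3 it had 35.2, 28.7 and 35.6 CPM fed and 50.6, 19.5 and 58.4 starved, which overlapped. NDUFB9, a membrane-arm subunit, showed the other arrangement, with 77.5, 63.4 and 106 against 98.5, 98.4 and 141 CPM under the vector and 44.8, 98.3 and 70.5 against 114, 117 and 114 under TRPML3. Its groups overlapped under the vector and not under TRPML3, and the average difference was 0.57 ± 0.21. UQCRFS1 (0.60 ± 0.24), ATP5MC1 (0.44 ± 0.20) and ATP5PO (0.21 ± 0.08) completed the 6. The adjusted p of the 5 members other than COX7B lay between 0.431 and 0.518.

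A few members with small differences were separated library by library. SDHB, the iron-sulfur subunit of succinate dehydrogenase, had 129, 132 and 116 CPM in fed vector cells, 148, 140 and 140 in starved vector cells, 127, 128 and 121 in fed TRPML3 cells and 140, 156 and 136 in starved TRPML3 cells. All 6 starved libraries lay above all 6 fed ones, as for 0.754% of all genes in that direction, and SDHB was the only member of which this held. Its average log2 difference was 0.19 ± 0.09 (edgeR quasi-likelihood adjusted p = 0.567). ATP5PO, the oligomycin sensitivity subunit of the ATP synthase stalk, had 199, 214 and 197 CPM in fed vector cells and 240, 217 and 239 in starved vector cells. Under TRPML3 it had 210, 212 and 225 CPM fed and 240, 260 and 258 starved. Starved libraries were above fed ones under each plasmid. NDUFAB1, the mitochondrial acyl carrier protein within complex I, had 73.3, 82.7 and 71.9 against 87.4, 83.6 and 89.4 CPM under the vector. Under TRPML3 it had 65.4, 73.0 and 76.4 fed and 77.2, 96.7 and 79.1 starved, and its average difference was 0.21 ± 0.11. These 3 members were separated in both comparisons, as were 1.26% of all genes (227 of 18030).

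**Figure D4:**
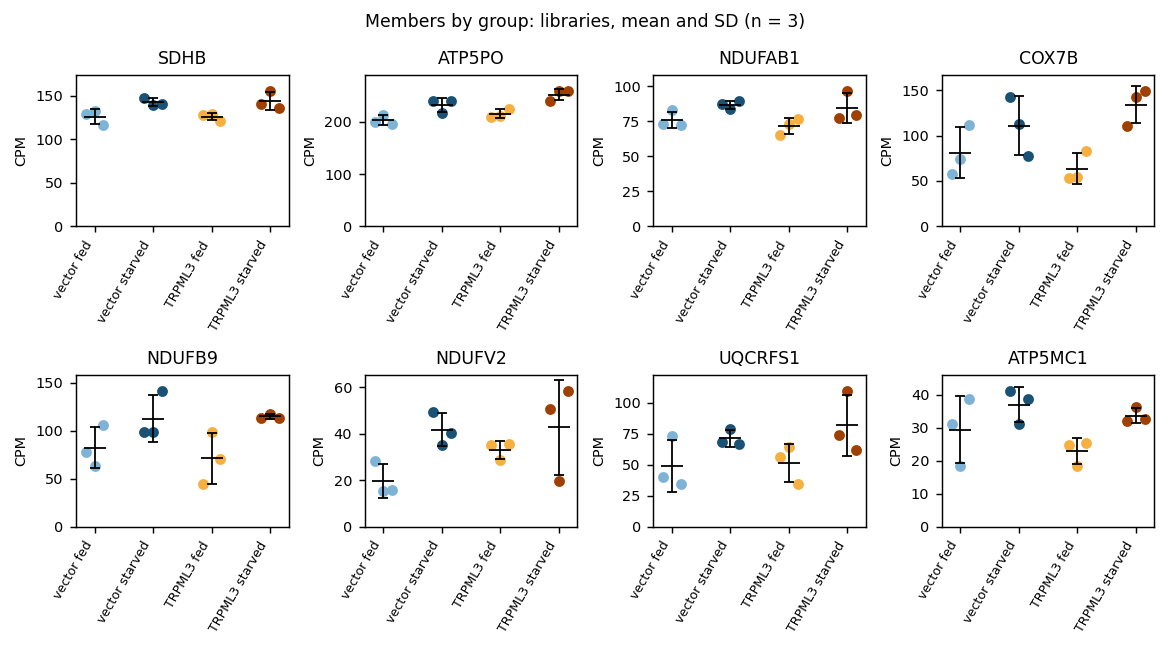
CPM of 8 members by group, with each library as a point and the mean and SD (n = 3) as bars, on axes that start at 0. SDHB, ATP5PO and NDUFAB1 are higher in starved than in fed libraries under each plasmid by small steps. COX7B, NDUFB9, NDUFV2, UQCRFS1 and ATP5MC1 have higher means in starved groups, by larger steps with more spread. Their fed and starved libraries overlap under the vector, under TRPML3 or under both.

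Counted by groups without overlap, 9 members were higher and 0 lower in starved vector cells, beside 5.36% and 4.57% of all genes. In starved TRPML3 cells 14 were higher and 3 lower, beside 5.56% and 5.66%. The 3 lower members were SDHD, UQCR11 and the testis form COX6B2. Among the 14 were ATP5F1A, ATP5PB, ATP5ME and ATP5MC1 of ATP synthase and COX5A and COX7B of complex IV. The difference between the starvation responses (interaction) was called for 0 members, with 1 at an unadjusted p under 0.05, NDUFA3 (1.93 ± 0.76), beside 2.07% of all genes and 0.0% called. DESeq2's Wald test also gave NDUFA3 alone at that p, beside 2.95% of all genes, and called 0 members and 0.15% of all genes.

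By complex, the median average starvation difference was 0.14 in complex I (32 of 37 positive), 0.06 in complex II (3 of 4), 0.16 in complex III (7 of 9), 0.10 in complex IV (10 of 11) and 0.12 in complex V (13 of 20). The 20 of complex V include the pseudogenes ATP5PDP2, ATP5MC2P4 and ATP5MFP2. The parts of complex I gave 0.22 for the N module, where NADH is oxidized, 0.11 for the Q module, where ubiquinone is reduced, and 0.12 for the membrane arm, which pumps protons. Among the catalytic and redox subunits, UQCRFS1 had 0.60 and NDUFV2 0.73 ± 0.28. NDUFV1 had 0.18 ± 0.19, SDHA 0.06 ± 0.13, CYC1 0.16 ± 0.11, ATP5F1A 0.13 ± 0.07 and ATP5F1B 0.05 ± 0.26. NDUFS1, the largest subunit of the N module, had 0.50 ± 0.34 and ran from 62.8 to 334 CPM. None of these passed the test.

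**Figure D5:**
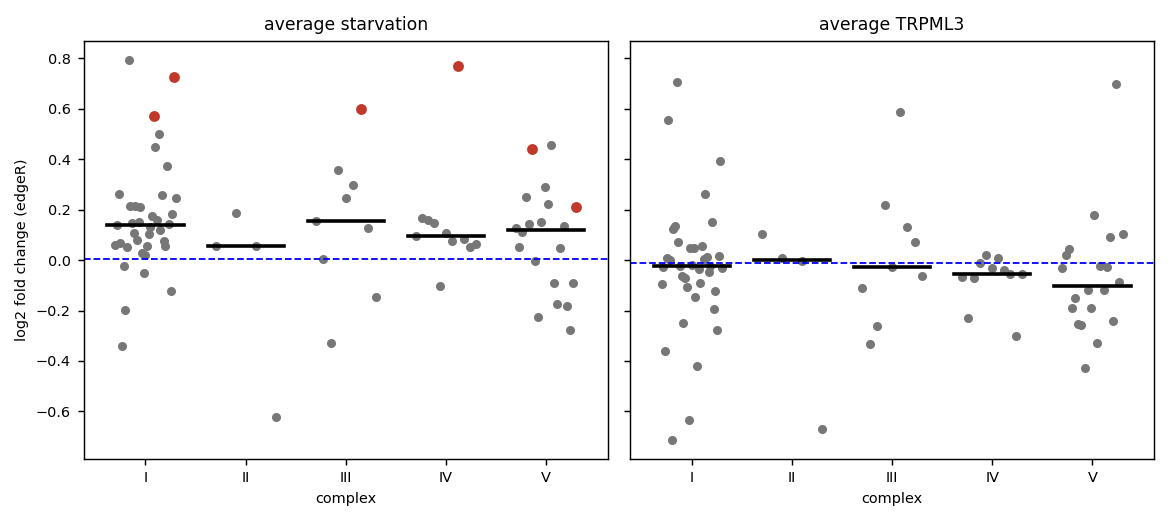
Each point is the edgeR log2 fold change of a member, by complex, for starved against fed (left) and TRPML3 against vector (right), each averaged over the other factor. Black bars are medians, the dashed line is the median of all genes and red points have an unadjusted p under 0.05: there are 6 on the left and 0 on the right.

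TRPML3 libraries were compared with vector libraries to see which members respond to the channel. No member was called in fed cells, in starved cells or on average, with a smallest adjusted p of 1.00 in each, while 0.0111%, 0.00555% and 0.0111% of all genes were called. At an unadjusted p under 0.05 there were 1, 1 and 0 members, beside 2.21%, 2.20% and 2.62% of all genes, and DESeq2's Wald test gave 2, 1 and 5 members at that p, beside 3.25%, 3.24% and 3.78%. It called 0 members, beside 0.167%, 0.239% and 0.183% of all genes. In fed cells the member was NDUFA3, with 11.04, 5.28 and 11.6 CPM in vector and 1.94, 4.09 and 2.67 in TRPML3 libraries, which did not overlap (log2 difference -1.68 ± 0.55, edgeR unadjusted p = 0.0114). In starved cells, where vector libraries had 6.81, 2.81 and 2.84 CPM and TRPML3 libraries 2.16, 7.37 and 5.33, the groups overlapped. NDUFA7 was the member in starved cells, with 2.72, 3.18 and 4.07 against 4.76, 4.43 and 11.9 CPM (1.08 ± 0.49, edgeR unadjusted p = 0.0489). Both genes are low, at about 5 CPM over all libraries (means 5.32 and 4.69).

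In fed cells 1 member was higher and 8 lower in TRPML3 libraries without overlap, beside 3.22% and 3.87% of all genes. The 8 included COX5A, COX5B and COX8A of complex IV. COX5B, a zinc-binding subunit, had 51.2, 51.6 and 54.0 CPM in fed vector cells and 41.7, 43.2 and 40.8 in fed TRPML3 cells. That difference was -0.32 ± 0.17, and in starved cells it was -0.14 ± 0.17. In starved cells 2 members were higher and 4 lower, beside 3.02% and 3.56%. The median member difference was -0.10 in fed cells (24 of 81 positive) and 0.03 in starved cells (48 of 81), against -0.01 for all genes in each. Scaled by library size alone, the median in starved cells was -0.08 with 26 of 81 positive, beside -0.11 for all genes. On average over serum, COX8A (-0.30 ± 0.14), NDUFB2 (-0.64 ± 0.30), NDUFA7 (0.70 ± 0.34) and NDUFA11 (-0.36 ± 0.18) had the smallest p of the members, all above 0.05 unadjusted.

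The comparisons of starvation and of TRPML3 share libraries: every group, fed or starved, serves in both. Precision was higher for the members than for most genes, with a median SE of 0.15 for the average differences against 0.32 for all genes. In the comparisons of 3 against 3 libraries the members' median SE was 0.21.

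Other genes of the mitochondrial energy system were read in the same fit of average starvation, where none was called. Of 77 mitochondrial ribosomal proteins, 7 had an unadjusted p under 0.05, all higher, with a median of 0.22 and 68 positive. MRPS2 (0.56 ± 0.14) and MRPL32 (0.40 ± 0.11) had the smallest p of that list. Of 51 assembly factors, 4 were higher and 1 lower at that p, with a median of 0.10, NDUFAF4, a complex I assembly factor, at 0.43 ± 0.12 and COA1, a factor for complexes I and IV, at -0.57 ± 0.19. Among 13 enzymes and subunits of the tricarboxylic acid cycle 1 reached it, OGDH (0.42 ± 0.14), with a list median of 0.07. Of 13 regulators, YY1 was at 0.98 ± 0.29 and TFB1M, a mitochondrial rRNA methyltransferase, at -1.35 ± 0.56, while NRF1 (-0.15 ± 0.29), GABPA (0.11 ± 0.22), PPARGC1A (-0.19 ± 0.27) and TFAM (-0.02 ± 0.13) did not reach it. For TFAM the average joined 0.38 ± 0.18 under the vector and -0.42 ± 0.18 under TRPML3. Its interaction was -0.81 ± 0.25 (edgeR quasi-likelihood unadjusted p = 0.00848) and was not called. Of the 13 mitochondrial genome subunits 0 reached an unadjusted p under 0.05 in average starvation, with a median of 0.10. For all genes the background is 9.45% at that p.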

How the data were processed

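RNA-seq was read in 12 HEK293T libraries. The authors deposited raw counts per gene and, in another table, a normalized signal, which equals the count divided by 1 size factor per library. The submitters' processing notes list FastQC, fastp, HISAT2, StringTie, DESeq2 and GRCh38. The counting step, the annotation release and strand use are not given in the sources used here. Groups and replicate numbers came from sample titles.

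Counts were fitted with edgeR 4.0.16 in R 4.3.3 (TMM, filterByExpr on group, robust quasi-likelihood, 1 coefficient per group, 12 libraries, 8 residual degrees of freedom). Benjamini-Hochberg adjustment ran over 18030 genes at 0.05, and 81 of 82 members passed the filter (ATP5F1AP3 did not). The replicate number was tested in a fit of group plus replicate number. CPM used TMM-scaled totals. Lengths came from GENCODE release 29 (principal transcript), in which 5 members were matched by symbol. Promoters came from RefSeq. Counting error is small at this depth, and p-values measure the spread between these replicates.

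Named were members called, those of smallest p per comparison, highest and lowest levels per complex, isoform groups, catalytic subunits (1 is not reported here), the extremes of SD and subunits outside the patterns; NDUFAB1, NDUFV3, COX5B and the genes named for single-library departures or non-overlap were chosen after their values were seen. Members and lists were chosen with earlier results of these data known. No pair of libraries agreed within counting noise (chi-square per degree of freedom at least 139 in 66 pairs). Deviations from group means correlated between same-numbered fed vector and TRPML3 libraries (r = 0.11, 0.14 and 0.31) and between starved ones (0.13, 0.09 and 0.31). Across numbers, replicates 1 and 2 correlated about as much (0.11 and 0.07 fed, 0.08 and 0.11 starved). Replicate 3 against another number gave -0.15 to -0.22 fed and -0.15 to -0.20 starved. Over all genes, these correlations thus set replicate 3 apart and do not show a pairing of replicates 1 and 2. The summed mitochondrial genome subunits did separate them, with 18110 to 22277 CPM in replicate 1 and 4882 to 11923 in replicate 2. Between same-numbered fed and starved vector libraries r was -0.04, -0.02 and -0.06. Alternatives were other size factors, library size only, mitochondrial genome genes or MCOLN3 left out, other filters, DESeq2 1.42.0, limma 3.58.1 on log2 of the deposited signal + 1, the replicate block and left-out libraries. On simulated counts of average starvation at a coefficient of variation of 0.5, 84 of 100 genes changed by 2 on the log2 scale and 7 of 100 changed by 1 were called. The common coefficient over all genes was 0.527. The subunit genes varied less, with a median within-group SD of log2 CPM of 0.22 against 0.56 for all genes. These shares therefore do not describe the members.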

Additional observations from a re-analysis of the deposited data

How the results depend on the processing

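The count of called members stayed 0 in every comparison except average starvation without replicate 3 in all groups (2 members; COX7B then at 1.11) and the replicate number in DESeq2 (1 member). The members' median average starvation difference stayed above that of all genes in all 24 alternatives. It lay between 0.10 and 0.15 with libraries left out. With library size alone, all genes shifted to a median of -0.06 and the members to 0.06, with 51 of 81 positive. For TRPML3 in starved cells that scaling moved all genes to -0.11 and gave a member median of -0.078, from 0.025. Leaving out libraries gave -0.088 to 0.079, and for average TRPML3 -0.11 to 0.026, so no direction is given for these comparisons.

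Counts of members at an unadjusted p under 0.05 were small and moved. With library size alone they were 2 for TRPML3 in fed cells, 0 in starved cells, 5 on average, 2 for starvation under the vector, 1 under TRPML3 and 3 on average. In DESeq2 they were 2 for TRPML3 in fed cells, 5 for average TRPML3, 6 for starvation under the vector, 5 under TRPML3 and 11 on average. With limma they were 0 for TRPML3 in starved cells, 3 for starvation under the vector and 2 for the interaction. Starvation under the vector gave 3 without a filter. With the groups compared alone, TRPML3 in starved cells gave 0 and starvation under the vector 3. With the replicate block, counts were 2 for TRPML3 in fed cells, 1 on average, 3 for starvation under the vector, 5 under TRPML3 and 7 on average, and the block called 0 members. With libraries left out, counts ran from 1 to 4 for TRPML3 in fed cells, 0 to 1 in starved cells, 0 to 5 on average, 1 to 6 for starvation under the vector, 1 to 5 under TRPML3, 2 to 7 on average and 0 to 2 for the interaction. For average starvation the count was 3 without vector starved replicate 1 or TRPML3 starved replicate 2 and 2 without replicate 1 in all groups. Without replicate 3 in all groups it was 5 of 81 members, beside 4200 of 18052 genes (23.3%). In that fit starvation under the vector gave 5 members, beside 2611 genes, and under TRPML3 4 members, beside 2913 genes. Over all genes the share at that p moved as well: across all alternatives it ran from 2.05 to 4.10% for TRPML3 in fed cells, 1.90 to 4.10% in starved cells, 2.45 to 4.59% on average, 2.29 to 14.5% for starvation under the vector, 3.01 to 16.1% under TRPML3, 4.35 to 23.3% on average and 1.99 to 4.01% for the interaction. The members' mean share of counts in TRPML3 fed libraries was 0.801% with mitochondrial genome genes left out of the total. The cause of these shifts was not tested.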
